A study of Oryza sativa with 12 samples.

Results

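Heat shock proteins, the heat stress transcription factors that control them and the DnaJ co-chaperones were followed in leaf RNA of rice. Members were the genes whose name, RAP description or Swiss-Prot match held the words heat shock, heat stress or DnaJ. They numbered 316 of the 39967 genes in the table. Of these, 192 were kept for tests because their FPKM, fragments scaled by gene length and library size, was 1 or more in 3 or more of the 12 libraries, among 22648 kept genes. Of the 124 members not kept, 76 are listed at 0 in every library. The members nearest to the limit were both small heat shock protein genes, Os10g0437900 (0.977 FPKM in the library that decided, not kept) and Os04g0445100 (1.00 FPKM, kept). The kept members were classed by annotation, and at least Os05g0127450 among the DnaJ genes is described as coding for no protein. They were 18 heat stress transcription factors, 19 small heat shock proteins (small HSP), 19 HSP70, 10 HSP90 and 1 HSP100. The rest were 97 DnaJ genes and 28 others placed in none of these classes. The others include Os02g0100300, named HEAT SHOCK PROTEIN 40.

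The plants were the cultivar ZH11, called WT, and phr2, labelled as a knockout of PHR2, the MYB-type transcription factor at the centre of phosphate (Pi) starvation signalling. They grew on 1/2MS medium. For the groups called no Pi, plants 3 weeks old were moved to 1/2MS without Pi and their leaves were taken 3 days later. The control groups are labelled as untreated, with no day of harvest given, so the move itself and the loss of Pi cannot be told apart. There are 3 libraries for either medium in either genotype. The labels give neither the mutant allele and its background, nor the number of mutant lines, nor whether the replicates are separate plants, so p-values measure only the spread between these libraries.

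Heat stress transcription factors bind heat shock elements in promoters and switch on chaperone genes when proteins unfold. Small HSPs hold unfolding proteins in a soluble state, HSP70 refolds them in cycles driven by ATP, and DnaJ proteins (also called J-proteins or Hsp40) bring substrates to HSP70 and stimulate its ATPase through their J domain. HSP90 acts later, on client proteins such as receptors and kinases, and HSP100 pulls aggregated proteins apart. In leaves many of these proteins work inside the chloroplast, where they serve protein import and the assembly of the photosynthetic complexes.

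The deposited values imply from 10109727 to 13122430 fragments counted per library. The sum of FPKM was 1410691 to 2292700 in WT control and 1162552 to 1457875 in WT no Pi, with the highest sum in WT control replicate 1. Leaf markers were high in every library: the 11 genes described as the small subunit of Rubisco, 4 of them listed at 0 throughout, summed to between 8907 and 43723 FPKM. Their sum was 22001 to 43723 in WT control, 8907 to 12701 in WT no Pi, 18431 to 21985 in phr2 control and 12553 to 25442 in phr2 no Pi. The 6 Casparian strip (root) genes summed to 3.22 to 49.1 FPKM, the 28 glutelin (seed) genes to 355 to 1759 FPKM and the 38 pollen genes to 39.3 to 352 FPKM. Some of these sums moved with the groups compared. The Casparian strip sum was 17.3 to 49.1 FPKM in WT control and 3.22 to 18.1 in WT no Pi. In phr2 it was 17.6 to 27.2 FPKM in control medium and 7.98 to 15.6 without Pi. The pollen sum was 100.2 to 352 FPKM in WT control, 59.2 to 165 in WT no Pi, 39.3 to 69.2 in phr2 control and 39.6 to 77.7 in phr2 no Pi. The 36 prolamin (seed) genes, 30 of them listed at 0 throughout, summed to 0.452 to 1.76 FPKM in WT control, 1.62 to 22.1 in WT no Pi, 4.01 to 7.66 in phr2 control and 0.896 to 2.88 in phr2 no Pi. The 25 chlorophyll a/b-binding genes summed to 71466 to 126393 FPKM in WT control, 27341 to 42148 in WT no Pi, 60414 to 98227 in phr2 control and 41194 to 92634 in phr2 no Pi. The part of these differences in the results was not tested. A lower sum can come from fewer cells of a type or from less RNA per cell, and bulk tissue cannot tell these apart. PHR2 itself (Os07g0438800) was at 17.9 to 31.5 FPKM in WT and 21.4 to 29.7 FPKM in phr2 libraries, so its level does not check the genotype labels. A gene listed at 0 is not read as silent, because genes with several transcripts are often listed so in this table.

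Single libraries stood apart in these genes, first of all phr2 control replicate 3. In that library 19 of the 192 kept members (9.90%) had an FPKM of at least 5 and at least 2 times the value of every other library, against 337 of all 22648 kept genes (1.49%). The 19 were 7 small HSP, 5 HSP70, 3 heat stress transcription factors, 1 HSP90, 1 DnaJ and 2 other members. Their ratio to the next highest library ranged from 2.08 to 36.1 with a median of 4.82, and the next highest was phr2 no Pi replicate 1 for 10 of them. Their summed level was 3326 FPKM in phr2 control replicate 3, 551 FPKM in phr2 no Pi replicate 1 and between 96.1 and 323 FPKM in the other libraries. The genes were chosen by their values in that library, so their ratios and this peak follow from the choice. No other library was the highest by that margin for more than the 7 members (3.65%, all genes 3.55%) of WT control replicate 1. Among the 141 genes of the other folding machinery described further on, phr2 control replicate 3 was the highest by that margin for 1. Summed over all kept members, WT control replicate 1 was the highest library, at 23253 FPKM against 16450 in phr2 control replicate 3. The small HSP sums in these libraries were 2425 and 2004 FPKM. Of the classes, only the other members had their highest sum in phr2 control replicate 3.

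**Figure D1:**
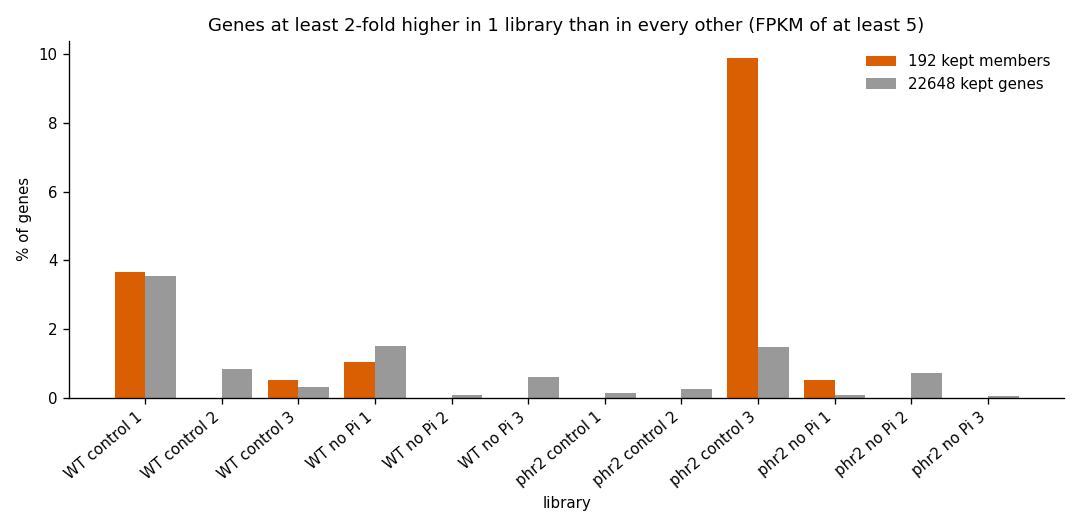
Share of genes, in percent, that had an FPKM of at least 5 and at least 2 times the value of every other library, for each of the 12 libraries on the x axis. Orange bars are the 192 kept members and grey bars the 22648 kept genes. The members' bar stands at 9.90% in phr2 control 3, against 1.49% for all genes.

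**Figure D2:**
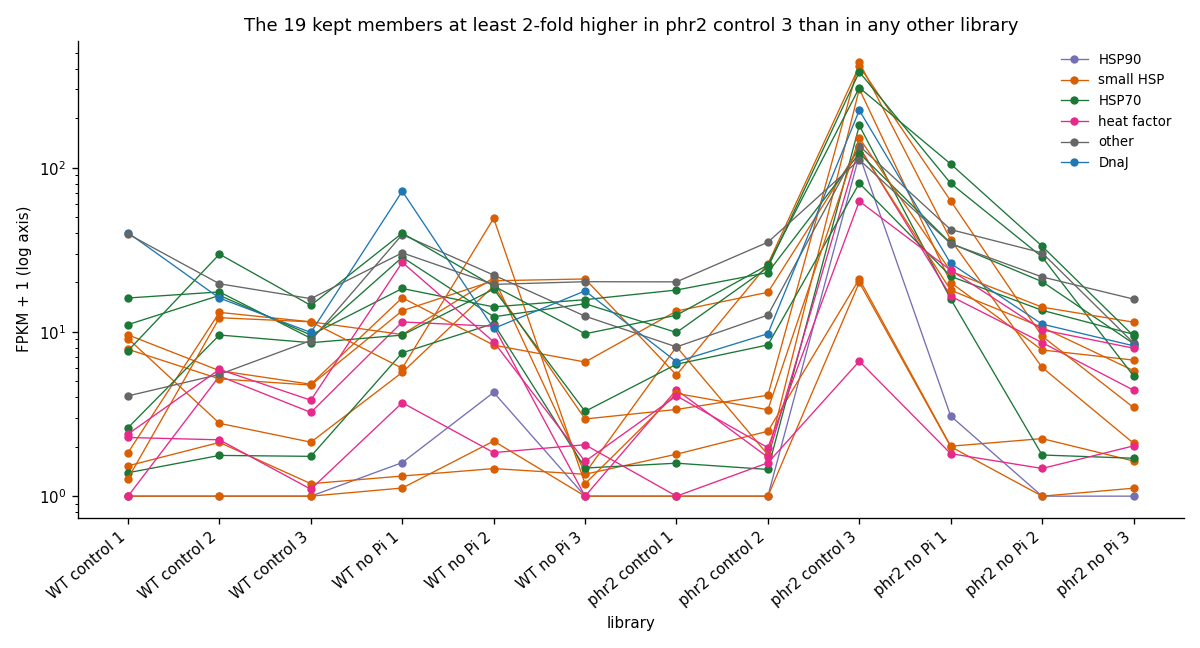
FPKM + 1 on a log axis in each of the 12 libraries for the 19 kept members that were highest in phr2 control 3 by at least 2 times, 1 line for each gene and 1 colour for each class. All lines peak in phr2 control 3, and their summed level there was 3326 FPKM.

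The other library to be read with care was labelled phr2 no Pi replicate 3. Its nearest library over all genes was WT no Pi replicate 2 (r = 0.968), while the other 5 phr2 libraries were each nearest to a phr2 library. Nearest libraries outside the own group were common, in 7 of 12 libraries. In 6 members the 6 WT libraries and the other 5 phr2 libraries did not overlap. The library with that label lay within the WT range in 5 of the 6 and between the ranges in the sixth. Over all kept genes it lay within the WT range in 1012 of 1210 such genes and within the phr2 range in 40. Without it, 0 members were called in the phr2 response, 1 in phr2 against WT without Pi and 3 in phr2 against WT in control medium, where all 12 libraries gave 0 in each. In these fits 0%, 1.19% and 3.4% of all kept genes were called (members 0%, 0.521% and 1.56%). The median difference over all members in the phr2 response was −0.02 without it and −0.08 with it.

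Members were tested by limma on log2(FPKM + 1) with Benjamini-Hochberg adjustment over all kept genes. In the WT response, no Pi against control, 4 of the 192 members had an adjusted p under 0.05, 2 higher and 2 lower. This share of 2.08% is close to the 2.36% of all kept genes, of which 0.958% were higher and 1.4% lower. No member passed in the phr2 response, in phr2 against WT in control medium, in phr2 against WT without Pi or in the difference of the responses. The background in these comparisons was 0%, 0.667% (0.0795% higher and 0.587% lower), 0% and 0% of all kept genes. At an unadjusted p under 0.05 the members numbered 46, 5, 24, 11 and 12 of 192 in the 5 comparisons in the order given (24.0%, 2.60%, 12.5%, 5.73% and 6.25%), against 25%, 3.91%, 18.5%, 8.67% and 8.84% of all genes. The groups did not overlap for 47 members in the WT response (24.5%, 30 higher and 17 lower), where 24.8% of all genes did not. They did not for 14 in the phr2 response (7.29%, 8 higher and 6 lower), where all genes gave 9.75%. For phr2 against WT in control medium this held for 31 members (16.1%, 19 higher and 12 lower), where all genes gave 21%, 9.18% higher and 11.8% lower. Without Pi it held for 18 (9.38%, 9 higher and 9 lower), where all genes gave 11.4%, 5.96% higher and 5.46% lower. Voom on the recovered reads called 0 members in the last 4 comparisons. In the WT response it called 8, all higher, and rescaling every library to the same FPKM sum gave 9, all higher, with 2 of the 4 genes in common each time. Under voom 4.28% of all genes were called (members 4.17%), and after rescaling 4.83% (members 4.69%). These scalings raised the median of all genes by 0.49 and 0.42 on the log2 scale. The comparisons share groups, so they are not independent of each other. The count also rested on single libraries. No member was called without replicates 1 or 2 of WT control or 1 or 3 of WT no Pi, each left out alone. The same held without replicates 1 or 2 of phr2 no Pi. Of all kept genes, 0% to 0.296% were called in those fits. The count was 1 without each phr2 control library, where 0.353% to 0.706% of all genes were called, and 2 without the library labelled as replicate 3 of phr2 no Pi (all genes 1.61%). It was 6 without WT no Pi replicate 2 (3.12%, all genes 3.29%) and 27 without WT control replicate 3 (14.1%, all genes 13.9%). The members' share thus moved with that of all genes.

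**Figure D3:**
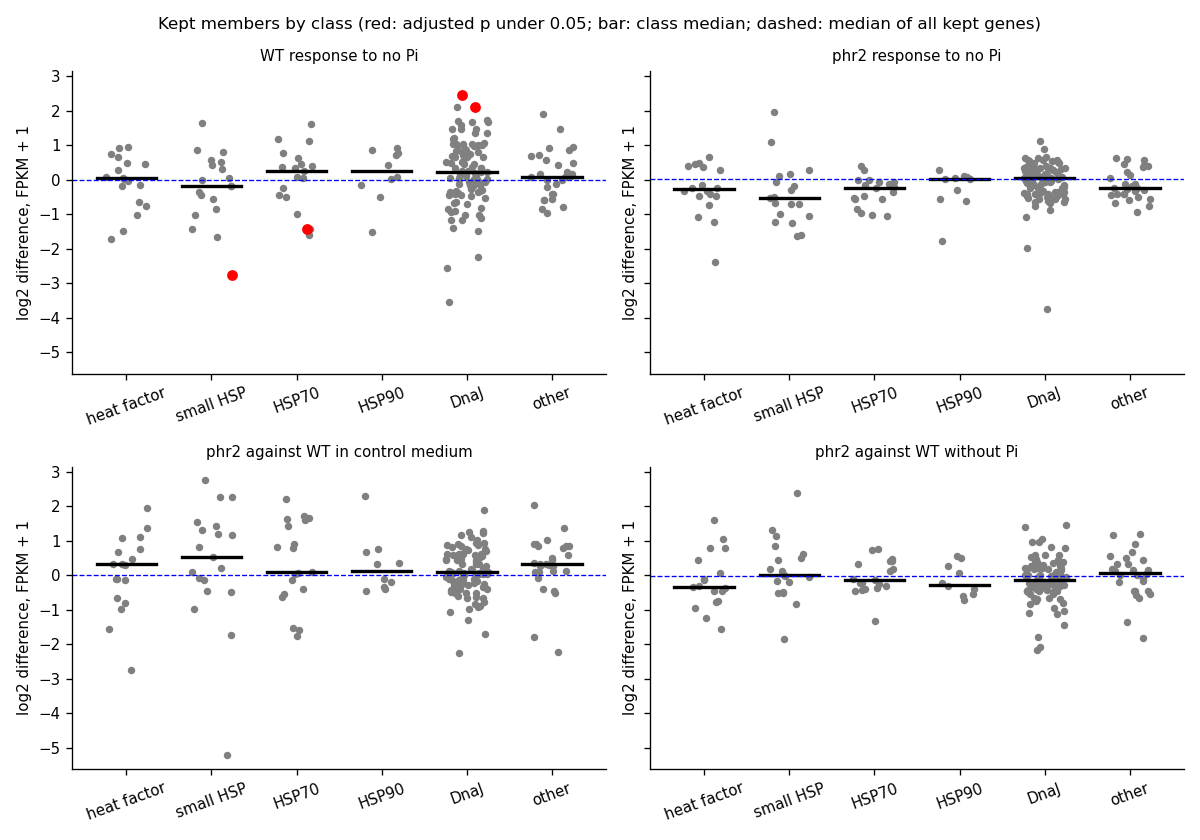
Difference on the log2(FPKM + 1) scale (y axis) of each kept member, by class (x axis), in 4 comparisons. Points are genes, red where the adjusted p was under 0.05, black bars are class medians and the dashed line is the median of all kept genes; the 4 red points all stand in the WT response, 2 above and 2 below the line.

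**Figure D4:**
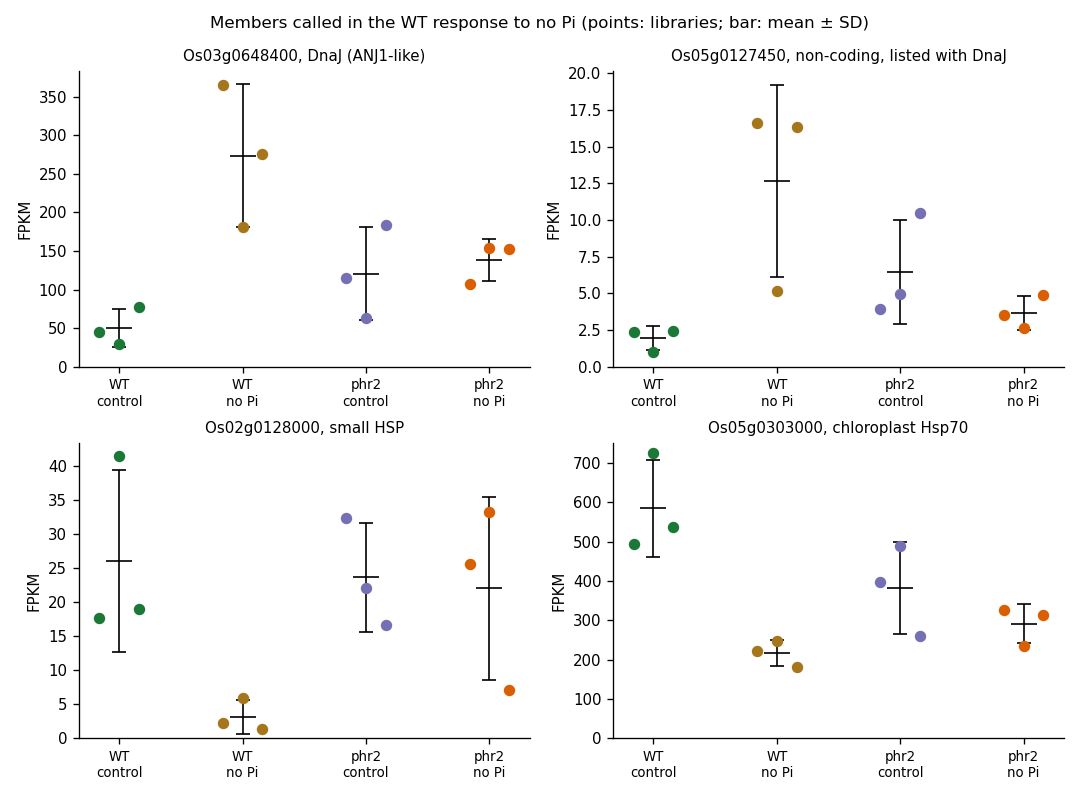
FPKM (y axis) of the 4 members called in the WT response, in the 4 groups (x axis). Points are libraries and bars the mean ± SD of 3 libraries; the WT control and WT no Pi points do not overlap in any of the 4 panels.

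Of the 35 heat stress transcription factor genes matched, 18 were kept, and none was called in any comparison. Their median difference was 0.04 in the WT response, −0.27 in the phr2 response, 0.32 for phr2 against WT in control medium and −0.33 without Pi, beside medians of all genes between −0.01 and 0.02. Without phr2 control replicate 3 the medians of the phr2 response and of phr2 against WT in control medium were 0.04 and −0.15. The most abundant were HSFA3 and HSFA9, at a mean of 125 and 87.7 FPKM over all libraries.

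HSFA3 (Os02g0527300, chromosome 2, 19309756 to 19312859, minus strand), which in Arabidopsis acts below DREB2A in the drought and heat response, gave 339, 153 and 307 FPKM in WT control. It gave 84.4, 181 and 47.2 in WT no Pi, 27.2, 17.01 and 104 in phr2 control and 26.3, 27.2 and 190.3 in phr2 no Pi. All phr2 control libraries lay below all WT control libraries, and the library labelled as replicate 3 of phr2 no Pi lay above every other phr2 library. Its difference between phr2 and WT in control medium was −2.75 (SE 0.83, limma adjusted p = 0.119). Leaving out the library labelled as replicate 3 of phr2 no Pi, which lies toward WT, cannot change this estimate and only narrows the spread. The limma adjusted p of that fit was 0.0468, where 3.4% of all genes were called, and nothing is concluded from it. HSFA9 (Os03g0224700), the relative of a seed-expressed factor of other plants, gave 89.3, 72.4 and 202 FPKM in WT control versus 87.5, 149 and 114 in WT no Pi. The phr2 libraries gave 39.5, 25.2 and 48.5 in control medium and 25.1, 24.8 and 176 without Pi. The library labelled phr2 no Pi replicate 3 was within the WT range and the other phr2 libraries were all below it. Its difference was −1.56 in control medium (SE 0.67, limma adjusted p = 0.243).

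Some class B and C factors, which lack the activation motifs of class A, held the library pattern of phr2 control replicate 3. HSFC2b (Os06g0553100) gave 1.39, 4.91 and 2.84 FPKM in WT control, then 25.5, 7.70 and 0.628 in WT no Pi, 3.08, 0.973 and 61.5 in phr2 control and 22.8, 9.30 and 6.96 in phr2 no Pi. The adjoining Os06g0553001, matched to the same protein, reached 133 FPKM in phr2 control replicate 3 and at most 15.5 elsewhere. HSFB2b (Os08g0546800), which represses heat-induced genes in Arabidopsis, was at 99.9 FPKM in phr2 control replicate 3 and 59.2 in WT no Pi replicate 1, and between 2.997 and 13.2 in the rest. In each of these genes phr2 control replicates 1 and 2 lay below the highest WT control library.

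Other factors varied by library without passing a test. HSFC1b (Os01g0733200) gave 366, 41.1 and 21.2 FPKM in WT control, then 21.5, 42.8 and 8.92 in WT no Pi, 79.2, 66.5 and 125 in phr2 control and 10.4, 4.18 and 78.4 in phr2 no Pi. WT control replicate 1 was far the highest. Its difference was −1.71 in WT (limma adjusted p = 0.346) and −2.39 in phr2 (adjusted p = 0.998), and the phr2 groups overlapped through the library labelled as replicate 3 of phr2 no Pi. HSFB1 (Os09g0456800) gave 38.5, 12.6 and 14.1 FPKM in WT no Pi and 5.98, 2.53 and 11.7 in phr2 no Pi, groups that did not overlap (difference −1.57, limma adjusted p = 0.541). HSFA2b (Os07g0178600) was at 0.210, 2.50 and 0.462 FPKM in WT no Pi and 11.8, 5.85 and 1.02 in phr2 no Pi (difference 1.62, limma adjusted p = 0.550). SPOTTED LEAF 7, the factor HSFA4d whose loss gives lesions on rice leaves (Os05g0530400), was at 5.90, 78.04 and 56.2 FPKM in WT control versus 18.7, 17.5 and 9.49 in WT no Pi. HSFA7 (Os01g0571300), the second smallest p of the difference of the responses in this class, stayed at or below 4.10 FPKM (difference −0.90, limma adjusted p = 0.677).

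Among 40 small HSP genes matched, 19 were kept and 1 was called. Os02g0128000, matched to the 18.9 kDa heat shock protein (chromosome 2, 1450233 to 1450766, plus strand), fell in the WT response. It gave 17.6, 41.4 and 19.05 FPKM in WT control versus 2.20, 5.94 and 1.29 in WT no Pi, with no overlap. The mutant gave 32.4, 22.01 and 16.7 in control medium and 25.7, 33.3 and 7.16 without Pi, where replicates 1 and 2 were near the control libraries and the library labelled replicate 3 was just above WT no Pi. The fall in WT was −2.76 (SE 0.59, limma adjusted p = 0.0442). It kept its direction with each WT library left out, between −3.21 and −2.38. Leaving out a phr2 library cannot change this estimate, only its spread. The fall passed in 3 of the 12 fits with a library left out. These were without WT control replicate 3, WT no Pi replicate 2 or the library labelled as replicate 3 of phr2 no Pi. Under the rescaling the fall was −2.29 with an adjusted p of 0.0532. Its difference of the responses was 2.47 (SE 0.84, limma adjusted p = 0.516). Its difference between phr2 and WT without Pi was 2.40 (limma adjusted p = 0.541), and 3.03 with an adjusted p of 0.0277 without the library labelled as replicate 3 of phr2 no Pi. That library lies toward WT no Pi in this gene, so leaving it out widens the difference and narrows the spread. Nothing is concluded from the p of that fit.

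Os05g0500500, matched to a 22.3 kDa class VI protein, gave 51.7, 38.97 and 16.2 FPKM in WT control versus 13.2, 9.87 and 6.47 in WT no Pi without overlap. It gave 18.6, 12.7 and 16.8 in phr2 control and 21.5, 19.6 and 13.6 in phr2 no Pi, where the groups overlapped. The difference was −1.66 in WT (SE 0.43, limma adjusted p = 0.0639) and the difference of the responses 1.83 (adjusted p = 0.516).

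Cytosolic class I small HSP genes lie in clusters on chromosomes 1 and 3, and 5 of them were highest in phr2 control replicate 3. On chromosome 3, Os03g0267000 (18.1 kDa class I, chromosome 3, 8834869 to 8835576, plus strand) was at 437 FPKM in phr2 control replicate 3, 35.4 in phr2 no Pi replicate 1 and 18.02 in WT no Pi replicate 2. The other libraries lay between 1.10 and 8.11 FPKM. Its neighbour Os03g0266900 (17.4 kDa class I) reached 415 FPKM in the same library against at most 61.8 elsewhere, and Os03g0267200 (17.7 kDa class I) 19.998 against at most 1.48. On chromosome 1, the pair encoding the 16.9 kDa class I proteins, Os01g0136100 and Os01g0136200, was at 150.3 and 300.4 FPKM in phr2 control replicate 3. Elsewhere these genes reached at most 48.2 and 20.3, both in WT no Pi replicate 2. They are closely related, so reads may be split between them. Os01g0135900 (17.9 kDa heat shock protein 2) in the same cluster had another pattern, with 1891, 258 and 134 FPKM in WT control, then 452, 124 and 479 in WT no Pi, 102, 149.7 and 115 in phr2 control and 255, 282 and 248 in phr2 no Pi. It was the most abundant small HSP gene and was highest in WT control replicate 1.

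Os01g0184050, which lies on the strand opposite to the annotated 18.0 kDa class II gene Os01g0184100 (listed at 0), gave 12.4, 16.4 and 131 FPKM in phr2 control and 8.59, 4.81 and 3.80 in WT control (difference 2.28, SE 0.77, limma adjusted p = 0.154). In the phr2 response it differed by −1.59 (limma adjusted p = 0.998). As the use of strand in the counting is not known, reads of the class II gene could be counted there. Os02g0201000, matched to a mitochondrial 23.6 kDa protein, stayed between 168 and 327 FPKM. Over the class the median difference was −0.16 in the WT response, −0.53 in the phr2 response, 0.54 for phr2 against WT in control medium and 0.02 without Pi. Without phr2 control replicate 3, the phr2 response median was 0.09 and that of phr2 against WT in control medium −0.04, so the direction of both turned on 1 library.

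Among 46 HSP70 genes matched, 19 were kept and 1 was called. Os05g0303000, a plastid HSP70 of the stroma, where it serves protein import (named HEAT SHOCK PROTEIN 70KD CHLOROPLAST PROTEIN 1 in the table; chromosome 5, 13621777 to 13627054, plus strand), fell in the WT response. It gave 493, 725 and 537 FPKM in WT control versus 222, 247 and 182 in WT no Pi, so all no Pi libraries were below all controls. The phr2 libraries gave 398, 490.2 and 259 in control medium and 326, 234 and 314 without Pi, and these overlapped. The fall in WT was −1.42 (SE 0.31, limma adjusted p = 0.0442). It was −0.87 with an adjusted p of 0.132 under the rescaling, −0.83 with 0.180 under quantile normalization and −0.92 with 0.105 in voom. It passed in 2 of the 12 fits with a library left out, those without WT control replicate 3 and WT no Pi replicate 2. With each WT library left out it lay between −1.53 and −1.25. The Rubisco small subunit sum moved the same way between these groups, and its part in the result was not tested.

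The second plastid HSP70, FLOURY ENDOSPERM 11 (Os12g0244100), known for its role in starch grains of the rice endosperm, gave 10.1, 19.5 and 13.3 FPKM in WT control versus 4.11, 3.24 and 4.35 in WT no Pi. The phr2 libraries gave 3.34, 5.99 and 3.04 in control medium and 4.64, 1.46 and 2.37 without Pi, so WT control stood above the other 3 groups. Its difference between phr2 and WT in control medium was −1.58 (SE 0.40, limma adjusted p = 0.0818). A cytosolic HSP70, Os03g0821100, gave 117, 165 and 148 FPKM in WT control versus 69.8, 74.4 and 68.6 in WT no Pi, then 145, 125 and 121 in phr2 control and 94.1, 89.3 and 82.4 in phr2 no Pi. The no Pi libraries were below the control libraries in both genotypes. Its difference was −0.99 in WT (SE 0.24, limma adjusted p = 0.0545) and −0.55 in phr2 (SE 0.24, adjusted p = 0.998). It was the only kept HSP70 gene whose phr2 groups did not overlap.

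The most abundant HSP70 genes were the cytosolic Os11g0703900 and Os03g0276500. Os11g0703900 gave 1647, 1077 and 533 FPKM in WT control, then 1605, 458 and 769.8 in WT no Pi, 517, 1055 and 756 in phr2 control and 978, 656 and 557 in phr2 no Pi, and all 4 groups overlapped. Os03g0276500 gave 844, 641 and 667 FPKM in WT control, then 1184, 189.996 and 579 in WT no Pi, 113, 164 and 508 in phr2 control and 207, 139.7 and 291 in phr2 no Pi. All phr2 control libraries were below all WT control libraries (difference −1.75, limma adjusted p = 0.192). Without Pi the difference was −1.31 (limma adjusted p = 0.604).

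Near Os03g0276500 on chromosome 3 lies Os03g0277300, an HSP70 gene with another profile (chromosome 3, 9411494 to 9416082, minus strand). It reached 179.6 FPKM in phr2 control replicate 3, 14.8 in phr2 no Pi replicate 1, 10.2 and 6.46 in WT no Pi replicates 2 and 1, and less than 1 FPKM in the other 8 libraries. Os01g0840100 and Os05g0460000, matched to cytosolic HSP70 of Arabidopsis, reached 382 and 306 FPKM in phr2 control replicate 3 and 79.3 and 104 in phr2 no Pi replicate 1. Os03g0113700, a mitochondrial HSP70, was at 121 and 33.6 FPKM in these libraries, and Os03g0218500 at 79.4 and 20.8 FPKM. For Os03g0113700 the phr2 response was −1.03 (limma adjusted p = 0.998), and 0.38 with WT control replicate 1, phr2 control replicate 3 and also the library labelled as replicate 3 of phr2 no Pi left out. A further mitochondrial type, Os09g0491772, gave 21.6, 18.1 and 13.6 FPKM in WT control, then 76.3, 26.7 and 29.6 in WT no Pi, 36.7, 52.5 and 96.5 in phr2 control and 81.6, 25.05 and 15.03 in phr2 no Pi (difference of the responses −1.96, limma adjusted p = 0.554). Its WT groups did not overlap, and its phr2 groups did. Os06g0679750, matched to HSP70 protein 16 of Arabidopsis, was at 22.6, 27.1 and 18.8 FPKM in WT control and 5.09, 12.8 and 5.54 in phr2 control (difference −1.53, limma adjusted p = 0.155). It overlaps the kept HSP70 gene Os06g0679800 on the opposite strand, whose mean was 26.9 FPKM in WT control and 27.2 in phr2 control. The reads of this pair cannot be assigned with certainty. The class median in the phr2 response was −0.24 with 2 of 19 genes above 0, and 0.10 without phr2 control replicate 3.

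Among 10 kept HSP90 genes of 14 matched, none was called. HSP90 genes of the cytosol were led by HSP82B (Os09g0482100), with 515, 404 and 237 FPKM in WT control, then 497, 213 and 339.9 in WT no Pi, 219, 222 and 381 in phr2 control and 269.7, 176 and 214 in phr2 no Pi. All groups overlapped (difference of phr2 and WT without Pi −0.61, limma adjusted p = 0.700). HSP82A (Os08g0500700) varied more, from 33.4 FPKM in the library labelled as replicate 3 of phr2 no Pi to 339 in phr2 control replicate 3. Os04g0108101 (chromosome 4, 485272 to 485663, minus strand) was at 118 FPKM in phr2 control replicate 3, at 3.28 or less in 3 libraries and at 0 in the other 8. Its partner on the opposite strand, Os04g0107900, was at 104 FPKM in the same library. No fold is given for Os04g0108101, as WT control is listed at 0 throughout.

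The chloroplast HSP90 is represented by an opposite-strand pair. Os09g0474350 gave 674, 489 and 393 FPKM in WT control, then 151, 318 and 117 in WT no Pi, 475, 399 and 297 in phr2 control and 269.7, 195 and 339 in phr2 no Pi. The WT groups did not overlap, and the difference was −1.50 in WT (SE 0.40, limma adjusted p = 0.0679) and −0.55 in phr2 (adjusted p = 0.998). Os09g0474300, the named gene on the other strand, gave 44.5, 114 and 233 FPKM in WT control versus 38.99, 111 and 97.9 in WT no Pi, with overlap. The mitochondrial pair Os12g0514500 and Os12g0514550 stayed at or below 11.2 FPKM, with a difference of 0.87 for Os12g0514550 in the WT response (limma adjusted p = 0.211). Of 4 HSP100 genes, 1 was kept, the chloroplast CLPB2 (Os03g0426900), with 2.12, 10.6 and 20.9 FPKM in WT control, then 3.78, 7.51 and 6.75 in WT no Pi, 9.68, 12.6 and 6.47 in phr2 control and 12.8, 10.1 and 7.99 in phr2 no Pi. Its WT response was −0.45 (SE 0.60, limma adjusted p = 0.674).

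DnaJ genes were the largest class, with 97 kept of 138 matched, of which 55 carry a J domain by Pfam. In the WT response 2 were called, both upward. Os03g0648400, similar to the farnesylated cytosolic J-protein ANJ1 (chromosome 3, 25127262 to 25130981, plus strand), gave 44.9, 29.5 and 77.3 FPKM in WT control versus 365, 181 and 275 in WT no Pi. All no Pi libraries stood above all controls. The phr2 libraries gave 115, 63.3 and 184 in control medium and 107, 154 and 153 without Pi, with overlap. The rise in WT was 2.46 (SE 0.45, limma adjusted p = 0.0336), between 2.14 and 2.82 with each library left out, and it passed in 6 of those 12 fits. It was 3.00 with an adjusted p of 0.0250 under the rescaling, and the difference of the responses was −2.16 (SE 0.64, limma adjusted p = 0.485). Os03g0648450, which overlaps it on the opposite strand and is also matched to a DnaJ protein, gave 44.9, 31.4 and 31.6 FPKM in WT control versus 202, 53.1 and 95.3 in WT no Pi, so the reads of the pair cannot be assigned with certainty.

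Os05g0127450 (chromosome 5, 1553622 to 1557016, minus strand) is described as a transcript that codes for no protein. It lies opposite Os05g0127400, a gene similar to DnaJ subfamily B member 13 that is listed at 0. It gave 2.36, 1.0002 and 2.45 FPKM in WT control, then 16.6, 5.13 and 16.3 in WT no Pi, 3.96, 4.95 and 10.5 in phr2 control and 3.51, 2.63 and 4.88 in phr2 no Pi. The WT groups did not overlap, and phr2 control replicate 3 was the highest phr2 library. The rise in WT was 2.11 (SE 0.49, limma adjusted p = 0.0491), which passed in 2 of the 12 fits with a library left out. These were without WT control replicate 3 and without WT no Pi replicate 2. The difference of the responses was −2.72 (SE 0.70, limma adjusted p = 0.435) and that between phr2 and WT without Pi −1.43 (adjusted p = 0.541).

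Many DnaJ genes had WT groups that did not overlap, most of them higher without Pi. With the 2 called genes these were 26 of 97 higher (26.8%) and 8 lower (8.25%), against 11.9% and 12.9% of all kept genes. After rescaling to the same FPKM sum they were 34 of 97 higher (35.1%) and 5 lower (5.15%), against 20.2% and 6.26% of all genes. Under this rescaling the class of other members gave 9 of 28 higher (32.1%). At an unadjusted p under 0.05 there were 37 of 97 DnaJ genes (38.1%), against 25% of all genes and 0 of 18 heat stress transcription factors. With a J domain the genes without overlap were 17 of 55 higher and 4 lower, and without one 9 of 42 higher and 4 lower. At an unadjusted p under 0.05, 20 of the 55 with a J domain were higher and 6 lower. Of the 42 without one, 5 were higher and 6 lower, and the share of all genes by direction was not computed. By non-overlap the genes without a J domain leaned upward too, with 21.4% higher and 9.52% lower, so the 2 measures differ. In phr2 6 DnaJ genes were higher and 4 lower without overlap, against 4.47% and 5.28% of all genes. The class median in the WT response was 0.24, beside −0.01 for all genes, and 0.38 without WT control replicate 1. With each library left out it ranged from 0.16 to 0.41. In the phr2 response it was 0.06, beside 0.02.

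The DnaJ genes that did not pass but whose WT groups did not overlap belong to several compartments. In the endoplasmic reticulum, where J-proteins serve the folding of secreted proteins, ERDJ3A (Os03g0293000) gave 2.39, 1.01 and 2.64 FPKM in WT control versus 13.6, 6.58 and 17.4 in WT no Pi. The P58IPK homologs Os01g0977200 and Os02g0195300 belong to the same compartment. Os01g0977200 gave 5.9999, 6.22 and 9.40 FPKM in WT control versus 14.6, 12.05 and 19.2 in WT no Pi, and Os02g0195300 gave 8.09, 8.97 and 16.8 versus 19.4, 22.2 and 26.3. Their no Pi libraries were all above their control libraries. In the chloroplast, DnaJ A6 (Os04g0549600) gave 5.28, 8.45 and 16.8 FPKM in WT control versus 26.4, 22.1 and 52.5 in WT no Pi, higher without Pi. PSA2 (Os08g0463900), a zinc finger protein of photosystem I assembly with the cysteine-rich part of DnaJ, gave 393, 299 and 247 FPKM in WT control versus 114, 209 and 106 in WT no Pi, lower without Pi. The limma adjusted p of these 5 genes lay between 0.0696 and 0.109. Os09g0460000, next by p in the class, gave 11.4, 10.1 and 20.7 FPKM in WT control versus 30.1, 39.3 and 50.99 in WT no Pi (difference 1.48, limma adjusted p = 0.057). It was at 44.5, 21.3 and 28.8 in phr2 control, above WT control in all 3 libraries (difference 1.11, adjusted p = 0.151).

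Os01g0606900, matched to DnaJ 6 of Arabidopsis (BROWN PLANTHOPPER RESISTANCE 33 in the table), gave 2729, 1123 and 734 FPKM in WT control, then 323, 276 and 123 in WT no Pi, 256, 335 and 766 in phr2 control and 56.8, 43.97 and 413 in phr2 no Pi. The WT groups did not overlap, and the phr2 groups did so only through the library labelled as replicate 3 of phr2 no Pi. Its difference was −2.56 in WT (SE 0.80, limma adjusted p = 0.0945) and −1.98 in phr2 (SE 0.80, adjusted p = 0.998). Os04g0675400, matched to the chloroplast DnaJ C76, gave 427, 58.1 and 14.7 FPKM in WT control, then 10.4, 16.4 and 0.236 in WT no Pi, 219.5, 80.6 and 294 in phr2 control and 16.1, 4.08 and 24.8 in phr2 no Pi. The phr2 groups did not overlap (difference −3.74, SE 1.21, limma adjusted p = 0.998), and the WT groups overlapped slightly (difference −3.55, adjusted p = 0.110). Os02g0506600, with a cysteine-rich domain, was highest in WT control replicate 1 at 3212 FPKM and between 331 and 1459.5 elsewhere. Os05g0562300, a DnaJ subfamily B type, was the DnaJ gene highest in phr2 control replicate 3, at 222 FPKM beside 70.9 in WT no Pi replicate 1 and at most 39.1 elsewhere.

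A few members separated the genotypes, with the library labelled as replicate 3 of phr2 no Pi standing with WT. Of the 192 kept members, 6 (3.12%) had WT libraries that did not overlap with the 5 other phr2 libraries, against 5.34% of all kept genes, and 4 were lower and 2 higher in phr2. The lowest values in phr2 were those of Os07g0560100, matched to a mitochondrial 26.2 kDa small HSP (chromosome 7, 22362652 to 22362924, minus strand). Its length of 273 bases, the lowest of the kept small HSP genes (median 501), is too short to encode a whole protein of 26.2 kDa. The gene gave 20.03, 162 and 127 FPKM in WT control versus 24.1, 58.6 and 14.5 in WT no Pi. The phr2 libraries gave 1.97, 0 and 1.85 in control medium and 4.46, 0.935 and 45.9 without Pi. Its difference between phr2 and WT in control medium was −5.22 (SE 1.09, limma adjusted p = 0.0528), and the adjusted p was 0.00781 without the library labelled as replicate 3 of phr2 no Pi. That library lies toward WT in this gene, in HSFA3 and in Os06g0256300, so leaving it out narrows the spread and leaves the estimate as it was. Nothing is concluded from the p of that fit. The related gene Os06g0219500 did not share the low phr2 values, with 5.20, 13.7 and 9.36 FPKM in WT control and 5.21, 47.02 and 35.96 in phr2 control.

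Os06g0650900, a DnaJ family gene, gave 198, 1145 and 980.2 FPKM in WT control, then 1196, 212 and 682 in WT no Pi, 82.2, 140.3 and 174 in phr2 control and 129.5, 78.7 and 184 in phr2 no Pi. No phr2 library reached the lowest WT library. Its difference was −2.25 in control medium (SE 0.73, limma adjusted p = 0.140) and −2.17 without Pi (SE 0.73, adjusted p = 0.541). Os06g0256300, similar to a calmodulin-binding heat shock protein, gave 11.9, 12.5 and 16.7 FPKM in WT control and 1.92, 2.22 and 6.75 in phr2 control (difference −1.80, SE 0.49, limma adjusted p = 0.0922). Os01g0292700, similar to a nuclear envelope-associated protein, went the other way, with 5.67, 6.15 and 8.86 FPKM in WT control, then 4.36, 6.46 and 4.06 in WT no Pi, 20.7, 16.2 and 20.4 in phr2 control and 14.5, 21.2 and 5.87 in phr2 no Pi. Its difference was 1.36 in control medium (SE 0.42, limma adjusted p = 0.125). Os12g0132400, matched to the Arabidopsis protein HEAT STRESS TOLERANT DWD 1, was the other gene higher in phr2, at 44.3, 27.95 and 50.3 FPKM in phr2 control and 22.3, 13.8 and 22.6 in WT control.

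**Figure D5:**
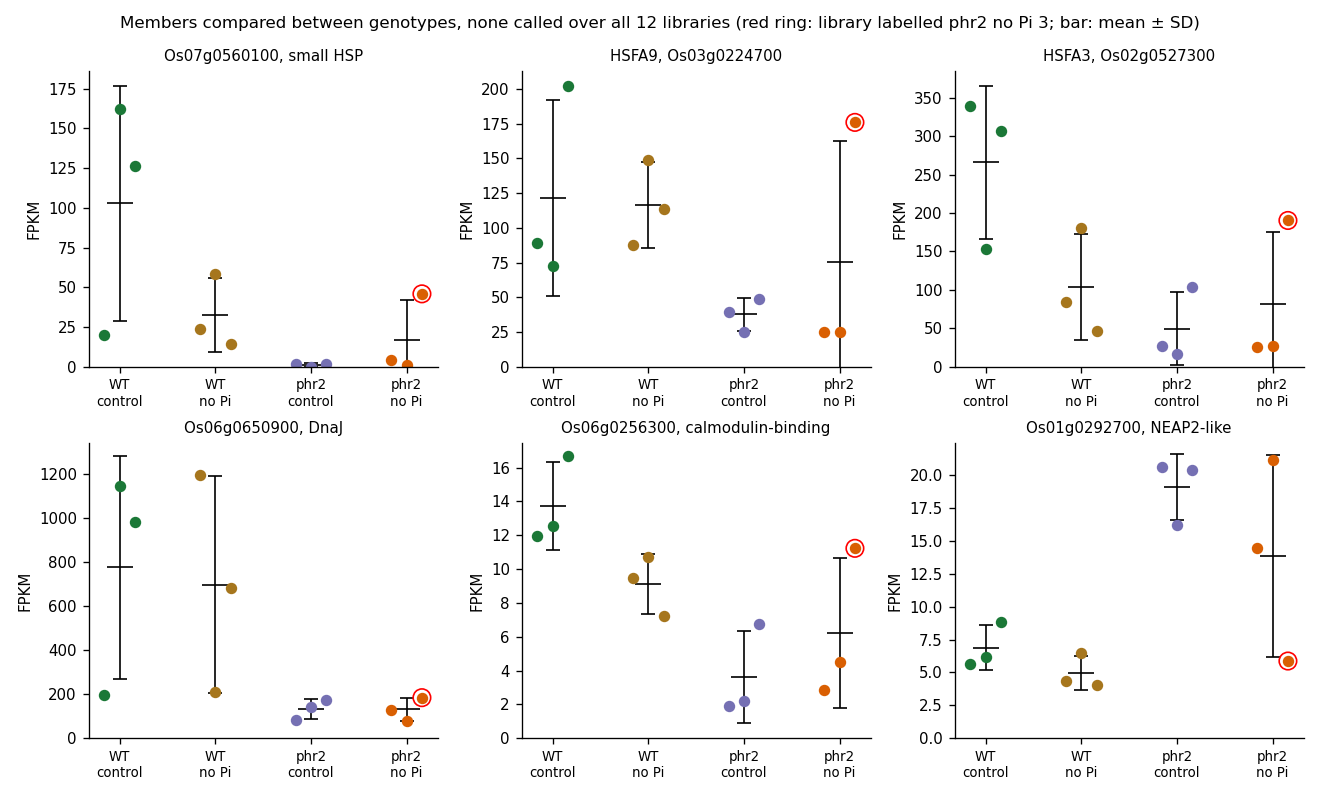
FPKM (y axis) in the 4 groups (x axis) for 6 members compared between the genotypes, none of them called over all 12 libraries. Points are libraries, bars the mean ± SD of 3 libraries, and the red ring marks the library labelled as replicate 3 of phr2 no Pi, which lies near the WT points in the panels of Os07g0560100, HSFA9, HSFA3, Os06g0256300 and Os01g0292700.

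HEAT-INDUCED RING FINGER PROTEIN 1 (Os03g0302200), an E3 ubiquitin ligase, lay low in the phr2 libraries other than the one labelled as replicate 3 of phr2 no Pi, and in WT control replicate 1 as well. It gave 24.8, 189 and 586 FPKM in WT control, then 159, 142 and 125 in WT no Pi, 23.3, 26.5 and 40.8 in phr2 control and 23.6, 19.7 and 129.5 in phr2 no Pi. Its difference in control medium was −2.23 (SE 0.95, limma adjusted p = 0.241). It was named after its values were seen. With 2 libraries left out, WT control replicate 1 and the one labelled as replicate 3 of phr2 no Pi, 3 members were called in control medium (1.56%, all genes 5.2%) and 6 without Pi (3.12%, all genes 2.83%). In several of these genes, this one included, the libraries left out are those that lie toward the other genotype, so no p of these fits is given.

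The remaining members include partners of the chaperones. HEAT-STRESS-ASSOCIATED 32KD PROTEIN (Os06g0682900), which prolongs acquired heat tolerance in Arabidopsis, gave 3.08, 4.51 and 7.86 FPKM in WT control, then 38.1, 21.2 and 11.5 in WT no Pi, 7.10, 11.7 and 135 in phr2 control and 40.96, 29.3 and 7.57 in phr2 no Pi. WT no Pi lay above WT control (difference 1.92, limma adjusted p = 0.224). The Hsp70-Hsp90 organizing protein Os02g0644100, which hands substrates from HSP70 to HSP90, gave 14.3, 18.3 and 19.9 FPKM in WT control versus 45.95, 17.7 and 50.5 in WT no Pi. The 70 kDa peptidyl-prolyl isomerase Os08g0525600, an HSP90 partner, gave 65.4, 55.8 and 90.8 FPKM in WT control versus 135, 77.9 and 197 in WT no Pi (difference 0.87, limma adjusted p = 0.224). Both of these pairs of groups overlapped. The heat shock factor-binding protein Os06g0274000, a negative regulator of heat factors, stayed between 67.5 and 100.4 FPKM in all libraries. The aconitase Os08g0191100, an enzyme of the citrate cycle, gave 56.2, 78.9 and 49.02 FPKM in WT control versus 240.3, 102 and 61.8 in WT no Pi, with overlap (difference of the responses −1.32, limma adjusted p = 0.587). Os07g0481200, similar to a calmodulin-binding heat shock protein, was at 111 FPKM in phr2 control replicate 3 and between 14.8 and 38.4 elsewhere. The smallest p of these members in the WT response was that of the aldo-keto reductase Os01g0847600, at no more than 3.67 FPKM (difference −0.96, limma adjusted p = 0.155).

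Strand bears on a part of these values. Of the 192 kept members, 54 overlap a gene annotated on the other strand. Among the members there are 44 opposite-strand pairs, with both genes kept in 7 pairs and 1 gene listed at 0 everywhere while its partner was kept in 17.

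Other genes of protein folding, 141 kept genes outside the members, were taken from words such as chaperonin, prefoldin, cyclophilin, FKBP, protein disulfide isomerase and calreticulin. In the WT response 1 rose and 2 fell, where 0.958% of all kept genes rose and 1.4% fell. None was called in the other 4 comparisons. In the 5 comparisons 36, 3, 24, 7 and 7 of the 141 had an unadjusted p under 0.05. The shares of all genes were 25%, 3.91%, 18.5%, 8.67% and 8.84%. The median difference was −0.08 in the WT response, −0.09 in the phr2 response, 0.13 for phr2 against WT in control medium and 0.06 without Pi, beside −0.01, 0.02, 0.02 and −0.01 for all genes. The 2 that fell are isomerases of the chloroplast. Os03g0708500, matched to FKBP17, gave 1863, 1535 and 712 FPKM in WT control versus 175, 421 and 86.3 in WT no Pi (difference −2.77, SE 0.54, limma adjusted p = 0.0385). Os06g0663800, similar to FKBP13 of the thylakoid lumen, gave 885, 645 and 296 FPKM in WT control versus 191, 156 and 87.7 in WT no Pi (difference −1.999, SE 0.42, limma adjusted p = 0.0440). The Rubisco small subunit sum was lower in WT no Pi as well, and its part in these results was not tested. The gene that rose, Os11g0578000, similar to a TCP-1/cpn60 chaperonin, gave 0, 0 and 0.280 FPKM in WT control versus 3.11, 2.08 and 1.58 in WT no Pi (difference 1.56, SE 0.33, limma adjusted p = 0.0440).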

How the data were processed

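RNA of rice leaves was sequenced in 12 libraries, 3 in each of 4 groups. The authors deposited FPKM values per transcript. The submitters' processing notes list Bowtie 0.12.2, StringTie 1.3.0 and HISAT2 2.0 and give no role for any. They also name the build mm8, which is a mouse build, while the rows carry rice RAP identifiers. Positions are those in the deposited table, with no build stated for them. Whether strand was used in the counting is not given in the sources used here.

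The 46947 rows were summed per gene, and a gene was kept where 3 or more libraries reached an FPKM of 1. FPKM multiplied by the length in the table gave whole fragments within 0.01 of a count, from which the totals of 10109727 to 13122430 per library come. These totals set the precision of low values. Values were tested as log2(FPKM + 1) in limma 3.58.1 (R 4.3.3) with a mean-variance trend, 4 group means over all 12 libraries, 8 residual and 3.78 prior degrees of freedom, and Benjamini-Hochberg adjustment over all 22648 kept genes at 0.05. A fold on this scale understates the change of low genes. The fit was tested on simulated data. Tables and plots used Python 3.11.15, pandas 2.3.3 and matplotlib 3.10.9.

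Classes were set from name, description, Swiss-Prot match and domains, with 7 genes placed by hand on their annotation. Genes named were those called in any comparison, the 2 smallest p per class and comparison, the 2 most abundant per class and up to 3 called genes of the other folding machinery per comparison. Members named beyond this rule, mainly for their library pattern, were named after their values were seen. The members and lists were chosen with earlier results of these data known. Alternatives were another pseudocount, no filter or a stricter one, rescaling, quantile normalization, voom on the recovered reads, a replicate block, genes with 1 transcript, only the groups compared, the class of other members left out, and libraries left out. Leaving out WT control replicate 1, phr2 control replicate 3 and the library labelled as replicate 3 of phr2 no Pi together was chosen after seeing the data. Other mutants named in the series were not analysed here.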

Additional observations from a re-analysis of the deposited data

Results flagged for a closer look

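Members that did not reach the minimum level in 3 libraries entered no comparison, and 4 of them had a signal in a single library. Os03g0245800, matched to a chloroplast small HSP, was at 72.5 FPKM in phr2 control replicate 3 and at most 4.18 FPKM in any other library. Os03g0745000, the heat stress transcription factor HSFA2a, was at 6.20 FPKM in that library and at most 0.851 FPKM elsewhere. Os04g0107900, the HSP90 gene opposite Os04g0108101, was at 103.7 FPKM there and at most 3.03 FPKM elsewhere. Os11g0696600, a gene with an Hsp70 domain, was at 233.6 FPKM in phr2 control replicate 2 and is listed at 0 in the other 11 libraries.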

How the results depend on the processing

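The 4 members called in the WT response became 0 with no filter on low values or with only the groups compared, 9 after rescaling, 1 after quantile normalization, 8 with voom, 2 with the replicate block and 2 over genes with 1 transcript. With each library left out they ranged from 0 to 27. The share of all genes called moved likewise, at 0.277% with no filter, 0% with only the groups compared and 4.83% after rescaling. It was 1.06% after quantile normalization, 4.28% with voom, 0.768% with the block and 1.86% over genes with 1 transcript. With a library left out it went up to 13.9% (members 14.1%). The members called were 1 without both WT control replicate 1 and the library labelled as replicate 3 of phr2 no Pi (all genes 0.503%). They were 0 without these and phr2 control replicate 3 (all genes 0.265%). For phr2 against WT in control medium the 0 calls became 1 with an FPKM minimum of 5 and 1 with only the groups compared (all genes 1.14% and 1.21%). They ranged from 0 to 3 with each library left out, and were 3 and 5 with the 2 or 3 libraries left out together (1.56% and 2.6%, all genes 5.2% and 4.75%). Without Pi the 0 calls ranged from 0 to 1 and became 6 and 6 (3.12%, all genes 2.83% and 3.56%). The phr2 response and the difference of the responses stayed at 0 in each case run.

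The 3 other folding genes called in the WT response became 0 with no filter, after quantile normalization, with the replicate block, with only the groups compared and without the 2 libraries. Of the 141, they became 9 after rescaling, 9 with voom and 1 without the 3 libraries, and ranged from 0 to 13 with each library left out. The shares of all genes were 4.83%, 4.28%, 0.265% and up to 13.9%. For phr2 against WT in control medium 1 was called with only the groups compared, and 4 and 4 without the 2 or 3 libraries. With each library left out there were 0 to 2. All genes gave 1.21%, 5.2%, 4.75% and up to 3.4% in that order. Without Pi the counts were 1 and 1, and 0 to 1 (all genes 2.83%, 3.56% and up to 1.19%). The cause of these shifts was not tested.

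Deviations from the group mean in samples of the same replicate number correlated at r from −0.432 to 0.301, and the numbers were not taken as pairs. Between WT control and WT no Pi r was 0.257, 0.0801 and 0.171. Between WT no Pi and phr2 control it was −0.432, −0.0916 and −0.167. Samples of different numbers were not compared in this way, so pairing was not settled. The replicate block took the WT response from 4 to 2 members called.

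Among 65 pairs of gene and comparison, direction turned in 13 settings. The WT response of Os03g0426900 was 0.049 with voom, and ranged from −1.23 to 0.18 with each library left out, where its difference of the responses ranged from −0.062 to 1.34. For phr2 against WT in control medium it ranged from −0.64 to 0.77, was −0.053 without phr2 control replicate 2, and was −0.64 without the 2 libraries and −0.40 without the 3. Its phr2 response ranged from −0.12 to 0.32 and was −0.039 without phr2 no Pi replicate 1. The phr2 response of Os04g0108101 ranged from −2.91 to 0.54, and was 0.81 without the 3 libraries, where those of Os03g0113700 and Os07g0481200 were 0.38 and 0.035.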
